A study of Mus musculus with 3 samples.

Results

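RNA of the medial prefrontal cortex (mPFC), a frontal cortical area, was examined for 42 genes of germ cells, meiosis, piRNA control and pluripotency, out of 46073 gene rows in the table. The genes were taken from a list of names, and all 42 were found by matching Ensembl identifiers to mouse symbols. The tissue came from naïve C57BL/6 mice aged 3 months, with no treatment and no transgene in the labels. The series holds 3 samples, 1 each of methylated DNA enriched with an antibody, input DNA and RNA, and the DNA data were not analysed here. The list is labelled as germline and pluripotency genes silenced by DNA methylation. That label was not checked for each gene, and their methylation was not examined. The RNA values are FPKM, fragment counts scaled to transcript length and library size. The design text states 3 replicates for RNA-seq, but the table holds 1 value per gene, and whether that value is a mean, a pool or a single library is not given in the sources used here. No value therefore has an error, and the sequencing depth is unknown.

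Germ cells carry genes that other tissues keep off. They pair and recombine homologous chromosomes through the synaptonemal complex, and they hold transposons in check with PIWI proteins loaded with small piRNAs, assembled in granules by Tudor domain proteins. Many of these genes start in CpG-rich DNA that is methylated in somatic cells, and many are also bound by PRC1.6, a Polycomb complex whose subunits Mga and Max recognise the E-box and whose subunit E2f6 recognises E2F-type sites. Pluripotency factors such as Pou5f1 and Nanog are likewise shut off as the embryo forms its tissues.

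The sequence of the start regions is shown first, because no sequence was read in choosing the members. Many genes of this kind are described by CpG-rich starts and PRC1.6 binding, so these features are not independent of the list. Of the 4 motifs searched, the E-box was picked to lead after its counts were seen. RefSeq promoter windows on GRCm38.p6, from 250 bases before to 50 bases after the annotated start site, were at hand for 35 of the 42 genes. The E-box CACGTG, a palindrome that reads alike on both strands, lay in the window of 15 of these 35 genes (42.9%), against 1335 of 16564 protein-coding genes (8.06%). Below is the E-box nearest the start site in each of the 15, with up to 12 bases on either side, 5′ to 3′ on the strand of the gene, and with the E-box in capitals.

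Brdt, chr5:107331104-107331133, plus strand: cgcaggcacagtCACGTGgcagaccctggc
Ddx4, chr13:112652322-112652351, minus strand: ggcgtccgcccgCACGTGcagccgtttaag
Fkbp6, chr5:135350064-135350093, minus strand: gcgtctatcgatCACGTGccgtttctctcg
Hormad1, chr3:95559645-95559674, plus strand: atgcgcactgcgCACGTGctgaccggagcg
Mael, chr1:166238950-166238979, minus strand: taccaggcctacCACGTGacaatccccgcc
Mov10l1, chr15:88982744-88982765, plus strand: ccttCACGTGctaaccgccaac
Piwil1, chr5:128736080-128736109, plus strand: atcagggcccagCACGTGtccacctcgccg
Slc25a31, chr3:40708766-40708795, plus strand: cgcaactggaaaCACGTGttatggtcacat
Stag3, chr5:138280327-138280356, plus strand: cgcgctggagccCACGTGacaggactgcac
Stk31, chr6:49395472-49395501, plus strand: aggccggccaccCACGTGaccagggctgcg
Sycp1, chr3:102936177-102936206, minus strand: tagagaacccggCACGTGggaagggaaatc
Sycp3, chr10:88459532-88459561, plus strand: acgggcatggagCACGTGctaggaggcggg
Tdrd1, chr19:56826186-56826215, plus strand: tggggctgcgcgCACGTGggagtaaactgc
Tdrd9, chr12:111971452-111971481, plus strand: gcacgaggctccCACGTGcatgcagggcct
Tex12, chr9:50561344-50561373, minus strand: ccgcgagactgtCACGTGgctcgcgcgctg

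All 15 of these sites lay before the annotated start, from 11 bases away in Tdrd1 to 246 in Mov10l1, with a median of 93. In 5 genes (Fkbp6, Hormad1, Piwil1, Sycp3 and Tdrd9) the window held more than 1 E-box. The genes came from all the germline groups: 3 Tudor domain genes, 3 of the other piRNA factors, 3 of the synaptonemal complex, and also Ddx4, Piwil1, Hormad1, Stag3, Slc25a31 and Brdt. None of the 3 pluripotency genes with a window had one. CpG-rich windows hold this motif more often than others, so the shares were also set side by side within CpG content. Among windows with an observed/expected CpG ratio of 0.75 or more, 8 of 12 members (66.7%) had the E-box, against 12.0% of 5795 protein-coding genes. Among the other windows 7 of 23 members (30.4%) had it, against 5.93%. A match is only a run of letters and does not show that a protein binds there.

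The E2F-type core GCGGGA, searched on both strands, lay in 14 of 35 windows (40.0%), against 26.3% of protein-coding genes. Within CpG-rich windows it lay in 8 of 12 members, against 46.2%. Both motifs were in the windows of Ddx4, Hormad1, Mael, Slc25a31, Stag3, Sycp1, Sycp3 and Tex12. The cyclic AMP response element, searched as TGACGTC on both strands, was in 0 of 35 windows, against 4.11% of protein-coding genes. TATAAA was in 5 windows (14.3%), against 12.7%, in Piwil4, Stk31, Syce3, Tdrd7 and Tex19.1. The share with TATAAA was close to the background.

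Of the 42 genes, 5 stood at 1 FPKM or more, the level called detected here. These 5 are 11.9% of the members, where 31.5% of all rows and 58.6% of protein-coding rows reached that level. Another 30 had a value above 0 and under 1 FPKM. The remaining 7 genes (16.7%) were listed at 0, close to the 15.6% of protein-coding rows and below the 37.2% of all rows at 0. The median member was at 0.0500 FPKM, against 2.59 FPKM for protein-coding rows, which is 51.7-fold higher, and 0.0414 FPKM for all rows. A value of 0 can be a failed estimate in this table, since 8 of the 13 mitochondrial mRNAs were listed at 0 as well. In bulk tissue, few cells with much RNA of a gene and many cells with little of it cannot be told apart.

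**Figure D1:**
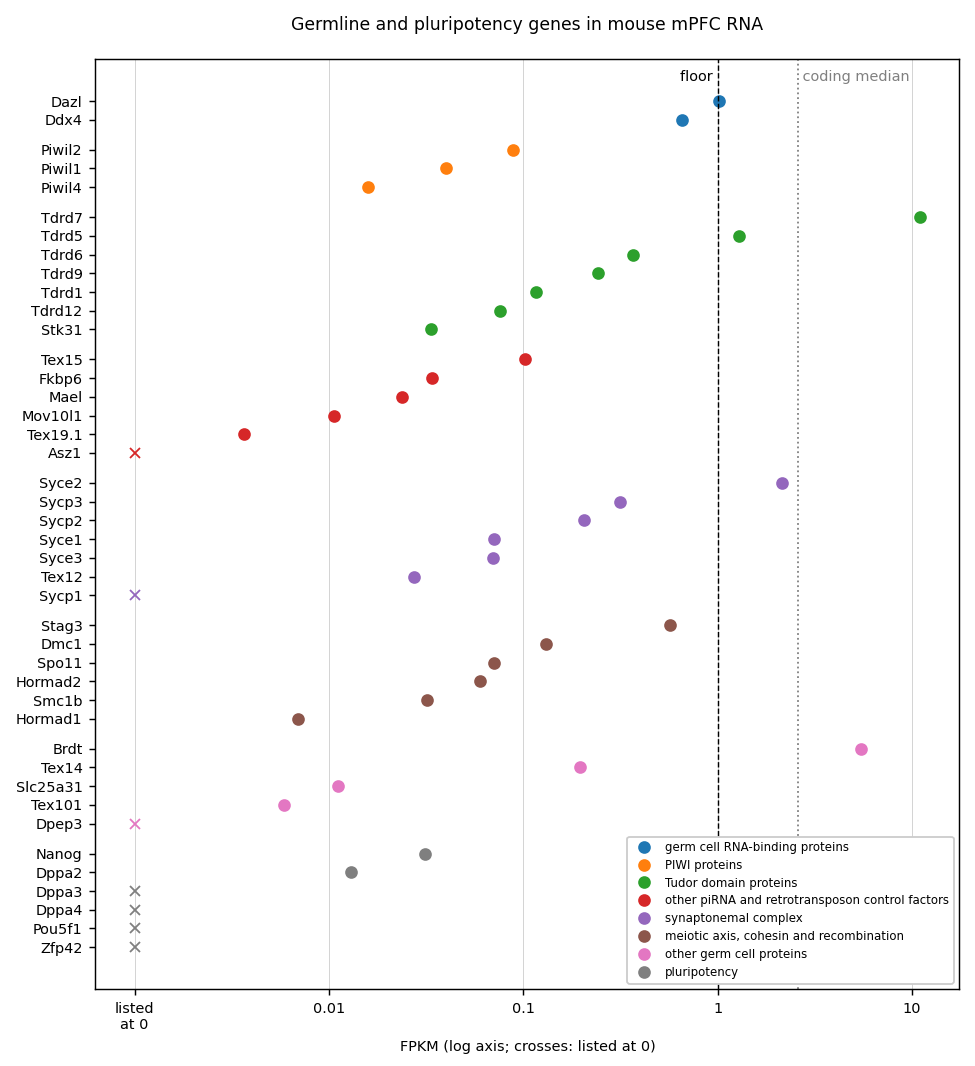
FPKM of each of the 42 genes on a log axis, grouped by role, with crosses for genes listed at 0, a dashed line at the 1 FPKM floor and a dotted line at the median of protein-coding rows (2.59 FPKM). Tdrd7, Brdt, Syce2, Tdrd5 and Dazl lie at or right of the floor, and only Tdrd7 and Brdt lie right of the dotted line.

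The 5 detected genes spanned 1.02 to 11.0 FPKM and came from 4 of the 8 roles. Tdrd7, a Tudor domain protein of germ granules that the lens also needs, was highest at 11.0 FPKM (chromosome 4, 45965027 to 46034766, GRCm38), above 72.7% of protein-coding rows. Brdt, the testis member of the BET bromodomain family that reads acetylated histones, was at 5.46 FPKM (chromosome 5, 107331116 to 107387061), above 60.4% of them. Syce2, a central element protein of the synaptonemal complex, was at 2.15 FPKM (chromosome 8, 84872111 to 84887446). Tdrd5, a Tudor protein of spermatogenic granules, was at 1.29 FPKM (chromosome 1, 156255296 to 156304304). Dazl, an RNA-binding protein that germ cells need, sat just inside the floor at 1.02 FPKM, and Ddx4 just outside it at 0.657 FPKM. With 1 value per gene these neighbours in the order have no spread to be told apart by.

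Annotated genes overlap 3 of the 5, and the sources used here do not say whether reads were counted by strand. Syce2 shares 1060 bases with Gcdh, a mitochondrial dehydrogenase gene at 13.1 FPKM. Brdt shares 16443 bases with the long non-coding RNA gene Gm17202 at 1.79 FPKM and holds the pseudogene Gm8152 at 0.176 FPKM. Tdrd7 holds the long non-coding RNA gene Gm52728, for which no row was matched. The part of overlapping reads in these 3 values was not tested. Tdrd5 and Dazl overlap no annotated gene. Values are per gene, so which transcript of a gene was present is not known.

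Of the germ cell RNA-binding pair, Ddx4, the germ cell helicase also called Vasa, was at 0.657 FPKM and Dazl 1.02 FPKM, so this pair had the highest median of the 8 roles at 0.837 FPKM. The 3 PIWI genes were all low. Piwil2 was at 0.0883 FPKM, Piwil1 at 0.0399 FPKM and Piwil4 at 0.0158 FPKM, so none came within 10-fold of the floor. These proteins bind piRNAs, and Piwil4 is the nuclear one that directs methylation of transposons in fetal male germ cells.

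The 7 Tudor domain genes ranged from 0.0335 to 11.0 FPKM with a median of 0.244 FPKM. Below Tdrd7 and Tdrd5 came Tdrd6 at 0.366, Tdrd9, a helicase partner of Piwil4, at 0.244 and Tdrd1 at 0.116 FPKM. Tdrd12 stood at 0.0761 FPKM and Stk31, which joins a Tudor domain to a kinase-like domain, at 0.0335 FPKM. The 6 other piRNA and transposon control genes were lower, with none detected and a median of 0.0173 FPKM. Tex15, needed for transposon methylation and meiotic recombination, was the highest at 0.102 FPKM. The co-chaperone gene Fkbp6 was at 0.0340 FPKM, Mael at 0.0239 FPKM, and the helicase gene Mov10l1, whose product acts in piRNA production, at 0.0107 FPKM. Tex19.1 had the lowest value above 0 among all members, 0.00367 FPKM, and Asz1, a mitochondrial anchor of piRNA production, was listed at 0.

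Of the 7 synaptonemal complex genes among the members, Syce2 was the one detected. The transverse filament gene Sycp1 was listed at 0. The lateral element genes Sycp3 and Sycp2 were at 0.316 and 0.205 FPKM. The central element genes Syce1 and Syce3 stood at 0.0703 and 0.0696 FPKM, and Tex12, whose product forms a complex with Syce2, at 0.0275 FPKM. Sycp3 and Tex12 lie over other genes, Chpt1 at 11.3 FPKM (3724 shared bases) and Il18 at 11.8 FPKM (4121 shared bases, the whole of Tex12).

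None of the 6 genes of the meiotic axis, cohesin and recombination was detected. Stag3, the meiotic cohesin subunit, was highest at 0.570 FPKM, and its 5′ part overlaps Gal3st4 at 1.68 FPKM and Gpc2 at 0.655 FPKM. Dmc1, the meiotic recombinase, was at 0.131 FPKM, and Spo11, which makes the breaks that start recombination, at 0.0705 FPKM. The axis genes Hormad2 and Hormad1 were at 0.0602 and 0.00693 FPKM, and the cohesin gene Smc1b at 0.0319 FPKM. Of the other 5 germ cell genes, Tex14, which keeps bridges between germ cells open, was at 0.196 FPKM, the sperm-type ADP/ATP carrier gene Slc25a31 at 0.0112 FPKM and Tex101, a surface protein gene of germ cells, at 0.00588 FPKM. Dpep3, a membrane dipeptidase gene of testis, was listed at 0. Brdt was thus the single detected gene of that group.

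Of the 6 pluripotency genes, 4 were listed at 0: Pou5f1 (Oct4), the central transcription factor of the pluripotent state, Zfp42 (Rex1), Dppa3 (Stella) and Dppa4. The share at 0 was 15.6% for protein-coding rows and 37.2% for all rows, and a 0 can be a failed estimate in this table. Nanog was at 0.0311 FPKM and Dppa2 at 0.0130 FPKM. Dppa2 and Dppa4 lie side by side on chromosome 16 with 15981 bases between them, and Dppa3 and Nanog lie 77217 bases apart on chromosome 6. Pou5f1, Nanog and Dppa3 have processed copies elsewhere in the genome, so their values are uncertain. Without these 6 the germline genes had a median of 0.0704 FPKM, with 5 of 36 detected (13.9%).

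Promoters of low genes are often poor in CpG, and the members were set against that pattern. The median observed/expected CpG ratio of the 35 member windows was 0.69, against 0.59 for protein-coding genes, and 12 members (34.3%) were CpG-rich, against 35.0%. Only 9 members (25.7%) fell under 0.48, against 42.5%, and all 3 pluripotency genes with a window were among them. Of protein-coding genes with a CpG-rich window 89.7% were detected in this RNA, with a median of 9.70 FPKM, against 23.9% of those under 0.48. Of the 12 CpG-rich members 2 were detected (16.7%), Dazl and Tdrd5, and their median was 0.0327 FPKM. With the most CpG-rich window of each gene, chosen after seeing the data, 15 members were CpG-rich and 4 of them were detected (26.7%), with Tdrd7 and Syce2 added, against 89.7% of protein-coding genes by the same choice. In the most upstream windows the other CpG-rich members were Ddx4, Stag3, Smc1b, Sycp1, Tex12, Stk31, Fkbp6, Mael, Slc25a31 and Asz1. Across protein-coding genes the CpG ratio and FPKM had a Spearman rho of 0.64 (16564 genes), and across the 35 members rho was 0.08. The members were listed as silenced genes, with earlier results of these data known, and most were under the floor. A low share detected and a small rho were therefore likely from the choice alone. These are descriptions of 1 value per gene, and genes are not independent.

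**Figure D2:**
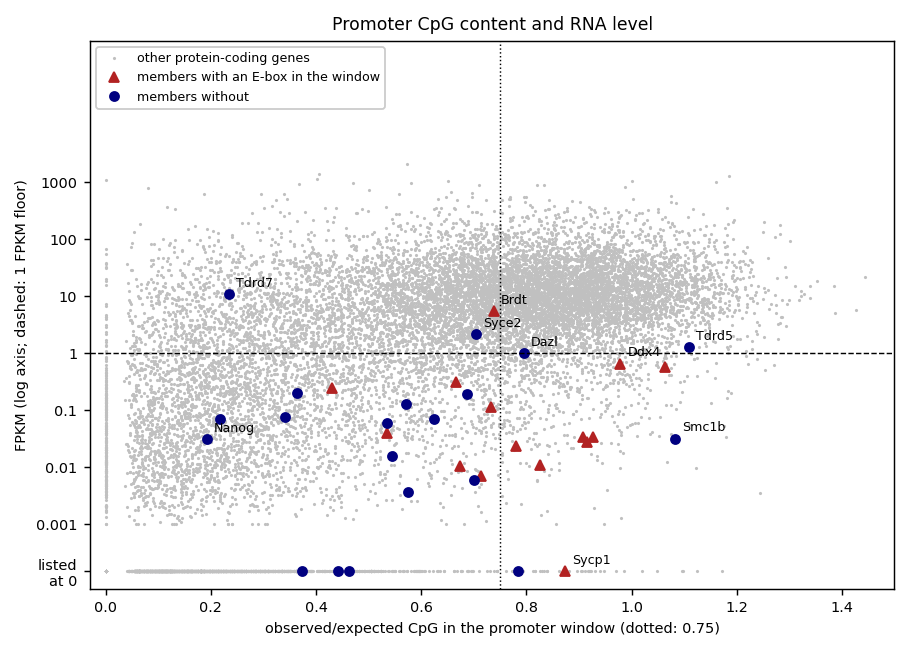
FPKM on a log axis (values under 0.001 are drawn at 0.001) against the observed/expected CpG ratio of the promoter window for protein-coding genes (grey; the few above a ratio of 1.5 are not drawn), with members marked as triangles where the window holds an E-box and as circles where it does not. Right of the dotted line at 0.75 most grey points lie above the dashed 1 FPKM line, while of the 12 members there only Dazl and Tdrd5 do.

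The contrast can be read from the letters. Below are the 250 bases before the start site of 5 genes, 5′ to 3′ on the gene's strand, with each CpG in capitals. Tdrd7 has 3 windows, and the most CpG-rich is shown, while its most upstream window is CpG-poor with a ratio of 0.23. Dazl is just inside the floor, Smc1b is at 0.0319 FPKM and Sycp1 at 0, and Nanog is the member with the lowest ratio, 0.19.

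Tdrd7, chr4:45972047-45972296, plus strand: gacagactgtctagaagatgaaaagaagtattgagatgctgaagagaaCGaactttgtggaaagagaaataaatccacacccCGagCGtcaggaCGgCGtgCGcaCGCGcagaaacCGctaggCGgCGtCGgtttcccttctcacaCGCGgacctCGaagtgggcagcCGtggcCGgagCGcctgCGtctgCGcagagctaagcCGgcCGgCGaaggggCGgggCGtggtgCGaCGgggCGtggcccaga
Dazl, chr17:50293621-50293870, minus strand: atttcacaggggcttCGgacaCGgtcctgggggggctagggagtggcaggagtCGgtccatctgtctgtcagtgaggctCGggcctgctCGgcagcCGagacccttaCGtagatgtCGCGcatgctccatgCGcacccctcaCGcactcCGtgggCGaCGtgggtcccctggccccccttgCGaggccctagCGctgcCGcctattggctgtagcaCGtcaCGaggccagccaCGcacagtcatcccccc
Sycp1, chr3:102936101-102936350, minus strand: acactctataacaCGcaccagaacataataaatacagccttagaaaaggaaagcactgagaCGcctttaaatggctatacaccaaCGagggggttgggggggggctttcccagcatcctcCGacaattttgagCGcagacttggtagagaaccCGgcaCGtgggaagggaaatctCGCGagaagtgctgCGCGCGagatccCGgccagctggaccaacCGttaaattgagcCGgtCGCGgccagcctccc
Smc1b, chr15:85131958-85132207, minus strand: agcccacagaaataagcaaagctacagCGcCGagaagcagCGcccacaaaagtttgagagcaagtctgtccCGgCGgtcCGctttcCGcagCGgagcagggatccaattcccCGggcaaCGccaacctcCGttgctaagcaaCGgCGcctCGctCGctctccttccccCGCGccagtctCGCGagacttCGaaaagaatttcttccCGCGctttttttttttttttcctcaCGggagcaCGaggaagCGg
Nanog, chr6:122707239-122707488, plus strand: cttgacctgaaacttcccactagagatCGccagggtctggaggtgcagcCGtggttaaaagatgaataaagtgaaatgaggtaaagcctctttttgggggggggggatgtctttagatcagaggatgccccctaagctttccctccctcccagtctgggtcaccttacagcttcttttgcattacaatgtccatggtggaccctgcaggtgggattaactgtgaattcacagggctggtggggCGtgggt

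Tdrd7 held 28 CpG in these 250 bases, Smc1b 25, Dazl 20 and Sycp1 17, against 3 in Nanog. Smc1b and Sycp1 were thus nearer in CpG number to Tdrd7 than to Nanog. In Smc1b the E2F-type core lies on the opposite strand, with its first letter in the printed run 47 bases before the start, and in Sycp1 the E-box begins 94 bases before it.

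Of the 1335 protein-coding genes with an E-box in the window 74.8% were detected. The share was 58.6% over all protein-coding rows, which include rows without a window. Among CpG-rich windows 87.9% of the genes with an E-box were detected, against 89.7% of all protein-coding genes with such a window. Among the other windows 60.6% of the genes with an E-box were detected. Of the 15 members with the motif 1 was detected, Brdt. The other detected members, Tdrd7, Syce2, Tdrd5 and Dazl, had no E-box in the window used. A link between the E-box and RNA level was not tested.

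The neighbours of the members were detected about as often as those of other genes. The nearest protein-coding genes on each side, leaving out genes that overlap, were at 1 FPKM or more in 46 of 81 cases (56.8%), close to the 58.3% for neighbours of all protein-coding genes, with medians of 1.37 and 2.51 FPKM. Dppa2 and Dppa4 were counted as neighbours of each other, as were Dppa3 and Nanog. Both flanking genes were detected for 14 of the 39 members with a row on each side (35.9%), against 40.8% of protein-coding genes. The following examples were picked after their values were seen. Mov10l1, at 0.0107 FPKM, begins 197 bases from Mlc1, an astrocyte membrane protein gene at 46.3 FPKM, and ends 3904 bases from Panx2 at 46.9 FPKM. Hormad1, at 0.00693 FPKM, lies between Ctss, a microglial protease gene at 43.4 FPKM, and Golph3l at 6.85 FPKM. Tex14, at 0.196 FPKM, ends 10865 bases from Septin4 at 147 FPKM. Tex15 lies between Purg at 6.24 FPKM and Ppp2cb at 46.2 FPKM, itself at 0.102 FPKM. Neither flanking gene with a row was detected for 10 members (23.8%), against 25.2% of protein-coding genes. Of these 10, Smc1b and Stag3 overlap detected protein-coding genes, Fam118a at 5.25 FPKM and Gal3st4 at 1.68 FPKM, and the other 8 included Dppa2, Dppa3, Dppa4, Sycp1 and Zfp42. The members were spread over 18 chromosomes, with none on X or Y.

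**Figure D3:**
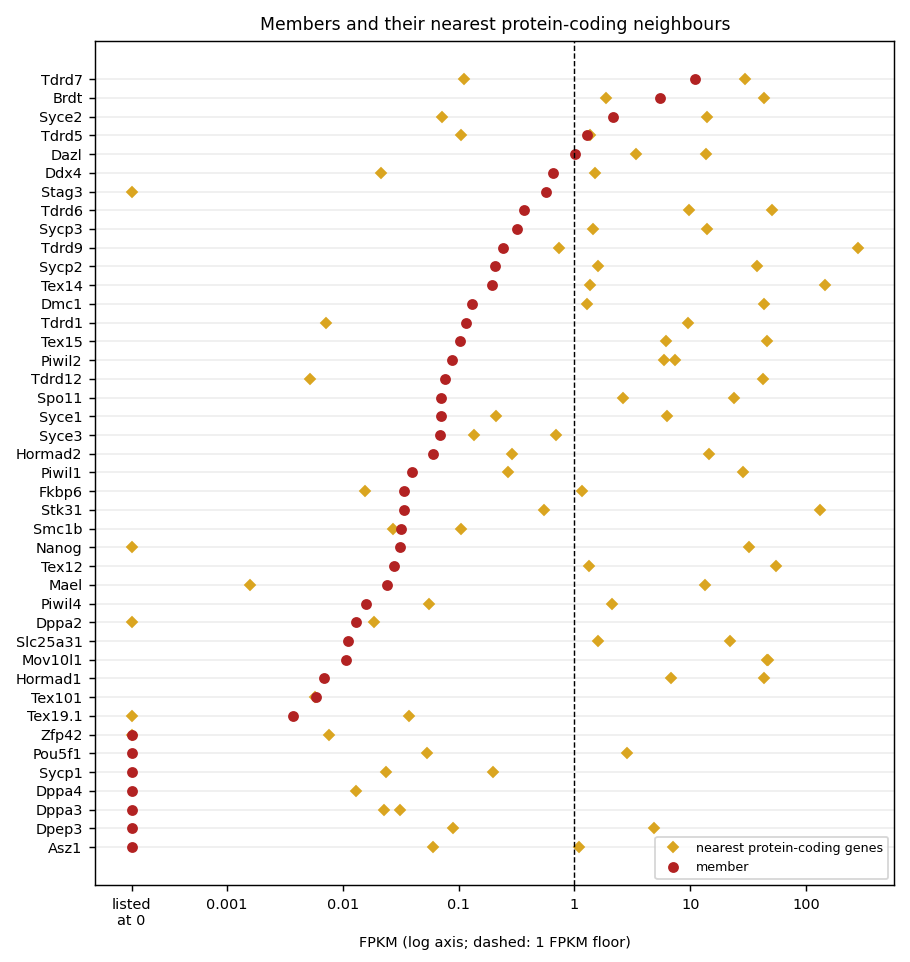
FPKM on a log axis of each member (circles, ordered by level) and of the nearest protein-coding gene on either side (diamonds), with genes listed at 0 at the left edge. Most circles lie left of the dashed 1 FPKM line, and 46 of the 81 diamonds lie right of it.

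Somatic relatives of the members were nearly all expressed. In all 21 pairs of a member with a relative from the same protein family or of the same enzyme type, the relative had the higher value. On the log2(FPKM + 1) scale, which understates differences between low genes, 18 of the 21 differed by 2-fold or more. The 21 pairs covered 16 members, since some members had more than 1 relative. Of the 21 relatives 19 were detected, against 58.6% of protein-coding rows. The relatives were picked by name as somatic genes, so a higher value than the member was likely from the choice alone. Where both genes were above 0 (16 pairs) the relative was 1.53-fold to 22087-fold higher, with a median of 167-fold. Slc25a4, the ADP/ATP carrier of heart, muscle and brain, was at 247 FPKM and Slc25a5, the widely expressed one, at 91.3 FPKM, against 0.0112 FPKM for Slc25a31. The mitotic cohesin subunit gene Smc1a was at 17.6 FPKM, 552-fold above Smc1b, and Stag2 at 9.92 and Stag1 at 5.97 FPKM were 17.4-fold and 10.5-fold above Stag3. The Argonaute genes Ago1, Ago2 and Ago3, which bind microRNAs, were at 9.48, 5.07 and 2.82 FPKM, where the PIWI genes reached 0.0883 FPKM. The helicase gene Ddx3x was at 46.9 FPKM, 71.4-fold above Ddx4, and the co-chaperone gene Fkbp4 at 46.5 FPKM, 1365-fold above Fkbp6.

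The BET genes lay closer together. Brd2 was at 52.6 and Brd3 at 8.36 FPKM, so that Brd2 was 9.63-fold and Brd3 1.53-fold above Brdt. Mov10 was at 1.66 FPKM, 156-fold above Mov10l1. The topoisomerase gene Top2b was at 24.4 FPKM against 0.0705 FPKM for Spo11. Snd1 at 47.0 FPKM was 404-fold above Tdrd1, and Dhx9 at 22.3 FPKM was 91.7-fold above Tdrd9. For members listed at 0 no fold is given. Pou3f1 and Pou2f1 were at 4.48 and 3.34 FPKM beside Pou5f1, Yy1 at 11.7 FPKM beside Zfp42, and Dpep2 and Dpep1 were low too, at 0.0892 and 0.0222 FPKM beside Dpep3. The germline copy Tex19.2 was listed at 0, as was Dppa4.

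**Figure D4:**
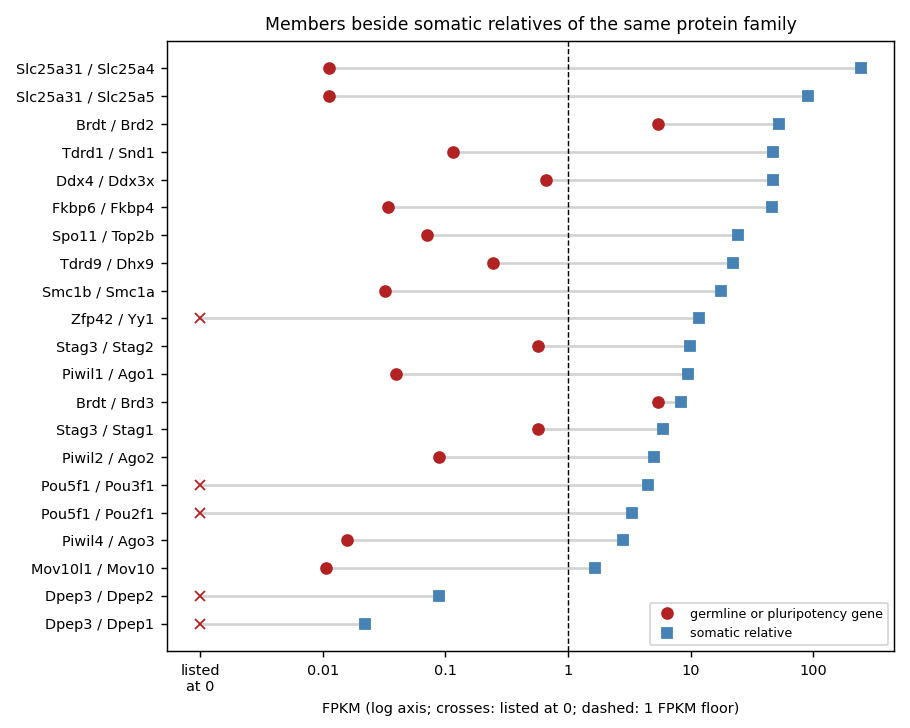
FPKM on a log axis of each member (circles, crosses where listed at 0) and its somatic relative (squares) in 21 pairs ordered by the relative's level. The square lies right of the circle or cross in all 21 pairs, with the shortest distance for Brdt and Brd3 among pairs with both genes above 0.

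Other genes listed for the same processes were somewhat higher than the members but mostly under the floor too. The background was 58.6% of protein-coding rows and 31.5% of all rows detected. Of 26 further meiosis genes with a row 6 were detected (23.1%), with a median of 0.332 FPKM. The highest were Six6os1, a synaptonemal complex gene found under its older name 4930447C04Rik, at 10.9 FPKM, the mismatch repair gene Mlh3 at 3.66, Psmc3ip at 2.77 and Mei1 at 1.68 FPKM, while Terb2, Meiob and Rnf212 were listed at 0. Of 18 further genes listed with the piRNA pathway 5 (27.8%) reached the floor, and the median was 0.320 FPKM. That list is broad and holds genes that are not limited to the pathway. Dazap1, a widely expressed RNA-binding protein gene, was at 19.9 FPKM, the Tudor gene Tdrkh at 11.3, the helicase gene Ddx25 at 5.35 and Tdrd3 at 4.72 FPKM, and Gtsf1 was lowest at 0.00645 FPKM. Tdrkh, a mitochondrial Tudor protein, and Tdrd7 were thus at like levels of 11.3 and 11.0 FPKM.

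Of 20 further pluripotency genes, with a median of 0.0703 FPKM, 3 were detected (15.0%, against 58.6% of protein-coding rows and 31.5% of all rows). These were Sox2, which neural progenitors and astrocytes also use, at 8.56 FPKM, Klf5 at 2.17 and Klf2 at 1.44 FPKM, while Lin28a, Fgf4, Nr0b1 and Tcl1 were listed at 0. Among 18 genes of spermatids, the late haploid stage, 1 was detected (5.56%), the sperm glycolytic gene Gapdhs at 1.04 FPKM. The median of the spermatid list was 0.0110 FPKM. The protamine genes Prm1 and Prm2, which pack sperm DNA, were at 0.129 and 0.0120 FPKM. Somatic testis markers were detected in 2 of 8 cases (25.0%), Inha at 7.20 and Cyp11a1 at 1.39 FPKM, genes not limited to testis. Cyp17a1 was lowest at 0.0174 FPKM.

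All 14 listed genes of PRC1.6 and its partners were above the floor, where 58.6% of protein-coding rows were, and their median was 9.61 FPKM. The E-box binding pair Mga and Max stood at 8.61 and 18.1 FPKM, E2f6 at 8.15 and L3mbtl2 at 10.5 FPKM. Cbx3 at 44.4, Yaf2 at 36.0 and Hdac2 at 34.6 FPKM were highest, and Pcgf6, the subunit that defines the complex, was lowest at 3.47 FPKM. Binding of these proteins to the members was not measured. The markers of the labelled tissue were present: 11 of 11 cortical neuron markers were detected (median 127 FPKM), as were 10 of 10 glia markers (median 23.9 FPKM). All 7 choroid plexus and ependyma markers were detected as well, with a median of 3.68 FPKM from Ccdc153 at 1.72 to Ttr at 566 FPKM, and their part in the members' values was not tested.

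**Figure D5:**
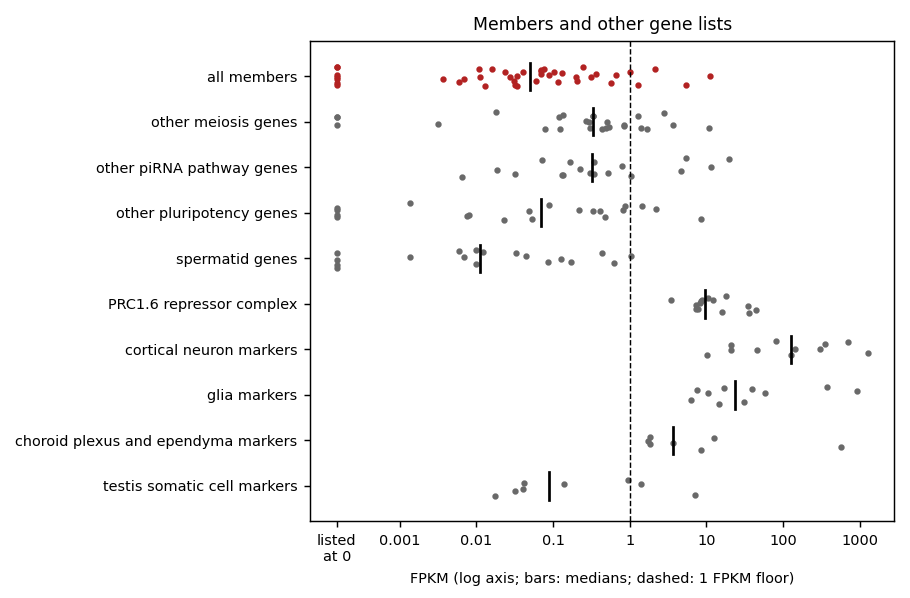
FPKM on a log axis of the 42 members (top row) and of the genes in 9 other lists, with 1 point per gene, bars at medians, a dashed line at 1 FPKM and genes listed at 0 at the left edge. The median of the members is 0.0500 FPKM, that of the spermatid list 0.0110 FPKM, and that of the PRC1.6 list 9.61 FPKM.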

How the data were processed

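RNA of 1 mPFC sample was analysed. Libraries were made from DNase-treated RNA with an Illumina TruSeq kit, per the labels' protocols. The submitters' processing notes name CASAVA 1.8.2, TopHat, Cufflinks and the build mm10. For annotation, strand, pooling and other versions, the answer is not given in the sources used here. FPKM values were computed and deposited by the authors. Both value columns were identical in 46073 of 46073 rows and were counted as 1 sample, so no test, error or leave-one-out value could be had.

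Identifiers were matched to symbols (45139 rows named), and biotypes, coordinates and promoter windows were matched by symbol to RefSeq GRCm38.p6, the assembly called mm10 (20635 protein-coding rows). List genes without a row under their symbol were looked up by RefSeq synonym. A gene at 1 FPKM or more was called detected. For genes with several promoter windows the most upstream was used. The CpG ratio is CpG count times window length over the product of C and G counts. Motifs were searched on both strands over the whole 300-base window, with overlaps allowed. The counting code was checked on simulated data.

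A further 2 pairs are not reported here, for a reason unrelated to their values, and were left out of the pair counts after those counts were first made. All members and pair genes are named, with up to 4 detected genes and the lowest of each other list (those at 0 where tied). E2f6, Mga, L3mbtl2, Prm1 and Prm2 were named after their values were seen, as were the neighbours of undetected members. Members and lists were chosen with earlier results of these data known. Python 3.11.15, numpy 2.4.6, pandas 2.3.3, scipy 1.17.1 and matplotlib 3.10.9 were used.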

Additional observations from a re-analysis of the deposited data

How the results depend on the processing

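The count of 5 detected members became 15 at a floor of 0.1 FPKM, 7 at 0.5 FPKM and 3 at 2 FPKM. It was 7 when the table was rescaled without mitochondrial rows, which multiplies values by 2.002 and adds Ddx4 and Stag3, and 5 when rescaled to sum to 1000000. Counting only members that overlap no other annotated gene left 2, Tdrd5 and Dazl. The median of 0.0500 FPKM became 0.0705 without the genes listed at 0, 0.0704 without the pluripotency genes and 0.275 as a geometric mean on the log2(FPKM + 1) scale. The share of members detected differed from the background by -19.6 percentage points against all rows and by -46.7 against protein-coding rows. The 18 pairs at least 2-fold apart stayed at 18 with a pseudocount of 0.1 and became 20 with 0.01 and 15 without members at 0. The 12 CpG-rich members became 21 of 35 (60%, against 49.6% of protein-coding genes) at a ratio of 0.6, 11 with a GC content of 55% or more required too, and 15 (42.9%, against 37.7%) with the most CpG-rich window of each gene, an alternative chosen after seeing the data. With any window allowed, also chosen after seeing the data, the E-box was found in 16 members, against 9.11% of protein-coding genes. No paired analysis was possible because the RNA is 1 sample with no second condition. Depth is unknown, so differences among values near 0 cannot be weighed.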

Other observations

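Some genes named for testis were detected in this tissue. These gene families were picked by symbol after the values were seen, and nothing was tested. Of 33 rows named Tex with a number (testis expressed) 6 were detected (18.2%, against 58.6% of protein-coding rows): Tex264, a receptor for autophagy of the endoplasmic reticulum, at 43.6 FPKM, Tex2 at 16.2, Tex261 at 14.5, Tex10 at 6.25, Tex9 at 3.11 and Tex30 at 3.00 FPKM. None of these is among the 5 Tex genes described above, the highest of which, Tex14, was at 0.196 FPKM. Of 23 rows named Spata with a number (spermatogenesis associated) 10 were detected (43.5%), led by Spata2 at 17.8 and Spata7 at 7.87 FPKM. Of 32 Rhox rows, homeobox genes of a reproductive cluster on the X chromosome, 0 were detected and 25 were listed at 0. Of protein-coding rows 15.6% were listed at 0, and of all rows 37.2%. Many Rhox rows are lettered copies, and how reads shared by copies were counted is not given.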
